A study of Mus musculus with 16 samples.

Results

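The expression of 10 neuropeptide genes and neuropeptide receptor genes was compared between the tooth germs of mouse embryos: the peptide precursors *Nmb*, *Grp*, *Nts*, *Sst*, *Npy*, *Penk* and *Tac1*, and the receptors *Nmbr*, *Grpr* and *Ntsr1*. They were 10 of the 19938 genes that had a probe set with a single gene symbol, and each of the 10 had 1 such probe set. The set was put together with results of these data already known, so the differences between tooth types given for its members describe how they were chosen and carry no test. All samples came from C57Bl6 embryos at E14.5, with no treatment or mutation, and each was RNA from a pool of 4 microdissected tooth germs hybridised to 1 Affymetrix whole-transcript array. There were 4 samples of lower incisors, 8 of mandibular first molars and 4 of maxillary first molars. The labels do not say which embryos or litters a pool came from, so the spread between samples may be partly technical.

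Neuropeptides are cut out of larger precursor proteins by prohormone convertases, stored in dense core vesicles and released on to G protein-coupled receptors of nearby or distant cells. In teeth they are best known from sensory and autonomic fibres of the dental pulp, but many precursors and receptors are also transcribed in embryonic mesenchyme and epithelium well away from neurons. The genes described here belong to the bombesin-like peptides with their receptors (*Nmb*, *Grp*, *Nmbr*, *Grpr*), the neurotensin pair (*Nts*, *Ntsr1*), somatostatin (*Sst*), neuropeptide Y (*Npy*), the enkephalins (*Penk*) and the tachykinins (*Tac1*).

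Values are log2 signals after robust multi-array averaging (RMA), in which a difference of 1 is a doubling. Signals of different genes come from different probes and are not compared with each other, and a low signal cannot be told from background. Markers of dental tissue were high on every array: the mean of 10 tooth epithelium genes, led by *Krt5* and *Krt17*, lay between 9.89 and 10.76, and that of 9 dental mesenchyme genes, led by *Vim* and *Prrx1*, between 10.58 and 10.81. The lists for tissues around the germ were not even. The mean of 10 skeletal muscle genes, led by *Actc1* and *Myl1*, was 8.98 in incisors (8.89 to 9.14), 8.30 in mandibular molars (7.79 to 9.13) and 7.13 in maxillary molars (6.85 to 7.41). The mean of 8 cartilage genes, led by *Sox9* and *Col2a1*, was 8.23 in incisors (7.60 to 8.79) against 7.30 in mandibular molars (7.17 to 7.44) and 7.31 in maxillary molars (7.22 to 7.37). The neuron list of 14 genes, led by *Gap43* and *Stmn2*, averaged 6.83, 6.78 and 6.55 in the same order. No batch is given in the labels, but by median correlation the arrays were taken as 2 sets. Those of mandibular molars numbered 5 to 8 correlated more closely with maxillary molars (median r 0.994 over probe sets, against 0.988 for numbers 1 to 4), and numbers 1 to 4 more closely with incisors (0.990 against 0.986). The correlations with maxillary molars did not overlap (0.992 to 0.996 for numbers 5 to 8, 0.983 to 0.990 for 1 to 4). Those with incisors did (0.982 to 0.993 for numbers 1 to 4, 0.983 to 0.991 for 5 to 8), so the place of the incisors in a set is less sure. Values within these sets are given beside the main ones where they matter.

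**Figure D1:**
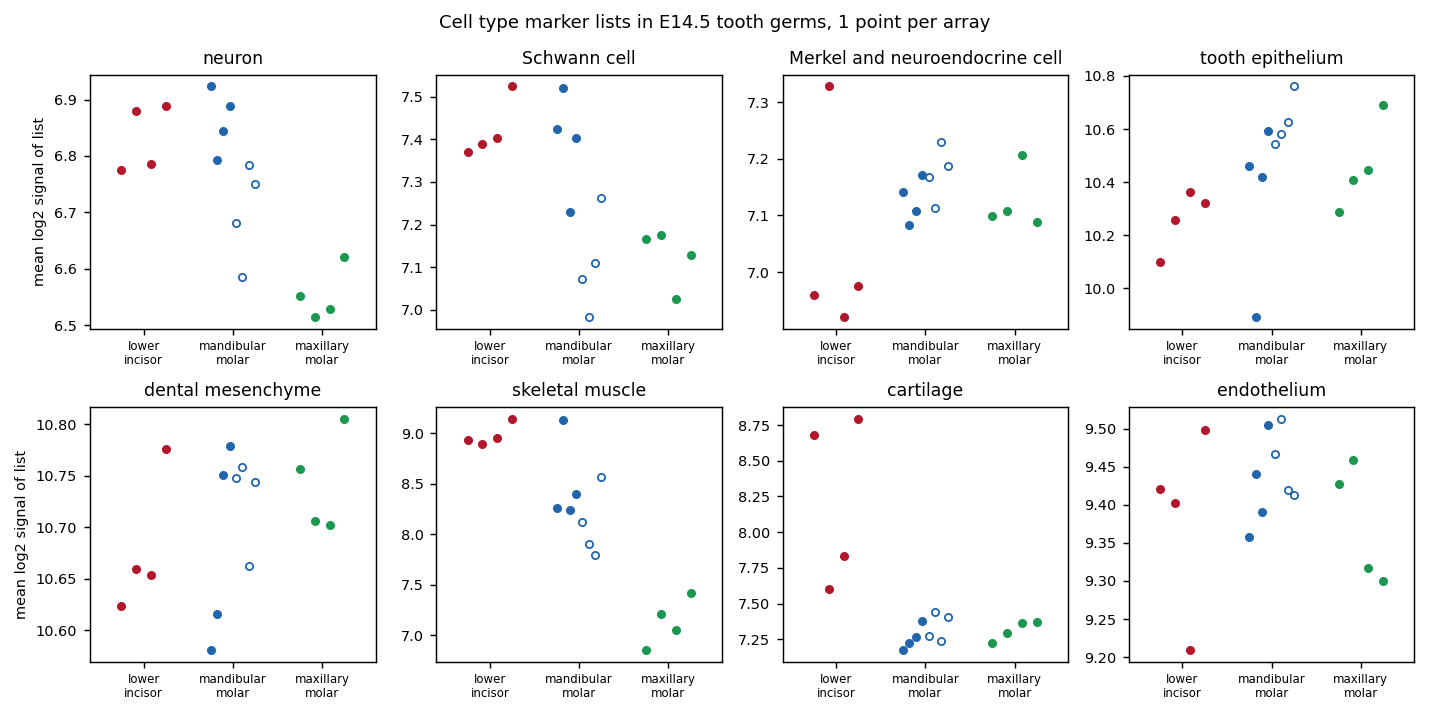
Mean log2 signal of each cell type marker list (y axis, a separate range in each panel) in every array, by tooth type (x axis); red points are lower incisors, filled blue points mandibular molars 1 to 4, open blue points mandibular molars 5 to 8, and green points maxillary molars. The cartilage list was above 7.5 in the 4 incisor samples and below 7.5 in all molar samples, and the skeletal muscle list was lowest in the 4 maxillary molar samples.

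The neuromedin B receptor gene *Nmbr* separated all 3 tooth types. Its log2 signal was 8.60, 8.34, 8.36 and 8.26 in the 4 maxillary molar samples, between 5.86 and 6.38 (median 6.12) in the 8 mandibular molar samples, and 5.52, 5.77, 5.43 and 5.57 in the 4 incisor samples. No sample of any tooth type overlapped with another type: every maxillary molar was above every mandibular molar, and every mandibular molar above every incisor. The mandibular mean minus the maxillary mean was -2.26 (SE 0.10), a 4.79-fold difference, and the mandibular mean was above the incisor mean by 0.56 (SE 0.10), a 1.47-fold difference. Between maxillary molars and incisors the difference was 2.82 (SE 0.10), or 7.06-fold. Within a set of arrays the mandibular difference from maxillary molars was -2.17, for mandibular molars 5 to 8, and that from incisors 0.47, for mandibular molars 1 to 4. Low signals, as in the incisors here, cannot be told from background, which limits the 2 differences from incisors. In whole germs, fewer cells with a transcript and less of that transcript per cell cannot be told apart, here and in all values that follow.

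Over all arrays, the peptide that NMBR binds best did not follow its receptor. *Nmb*, the neuromedin B precursor, measured 6.52, 6.61, 6.45 and 6.62 in incisors, 6.07 to 6.99 (median 6.64) in mandibular molars, and 6.63, 6.34, 6.40 and 6.61 in maxillary molars. The 3 tooth types overlapped throughout, and their means spanned only 0.11, less than the SD of 0.30 among the mandibular molars. The differences were 0.06 (SE 0.14) between mandibular molars and incisors and 0.11 (SE 0.15) between mandibular and maxillary molars. *Nmb* was thus the member with the smallest span between tooth types, and *Nmbr* the one with the largest.

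For gastrin-releasing peptide the ligand separated molars from incisors. *Grp* measured 6.51, 6.75, 6.57 and 6.67 in the incisors, 7.48 to 7.94 (median 7.66) in mandibular molars and 8.11, 7.77, 7.39 and 7.12 in maxillary molars. All 12 molar samples lay above all 4 incisors, while molars of both jaws overlapped. The mandibular mean exceeded the incisor mean by 1.06 (SE 0.09), which is 2.08-fold, and by 1.01 within mandibular molars 1 to 4. The 2 kinds of molar differed by 0.09 (SE 0.15), and the sign of that difference turned to -0.07 without maxillary molar 4. Its receptor gene *Grpr* had a low signal, between 5.08 and 5.69 in all samples, and its tooth type means spanned 0.31. Incisors (5.08 to 5.56), mandibular molars (5.10 to 5.60) and maxillary molars (5.52 to 5.69) overlapped in every pairing of tooth types. The largest difference, of maxillary molars above incisors, had an SE of 0.10.

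**Figure D2:**
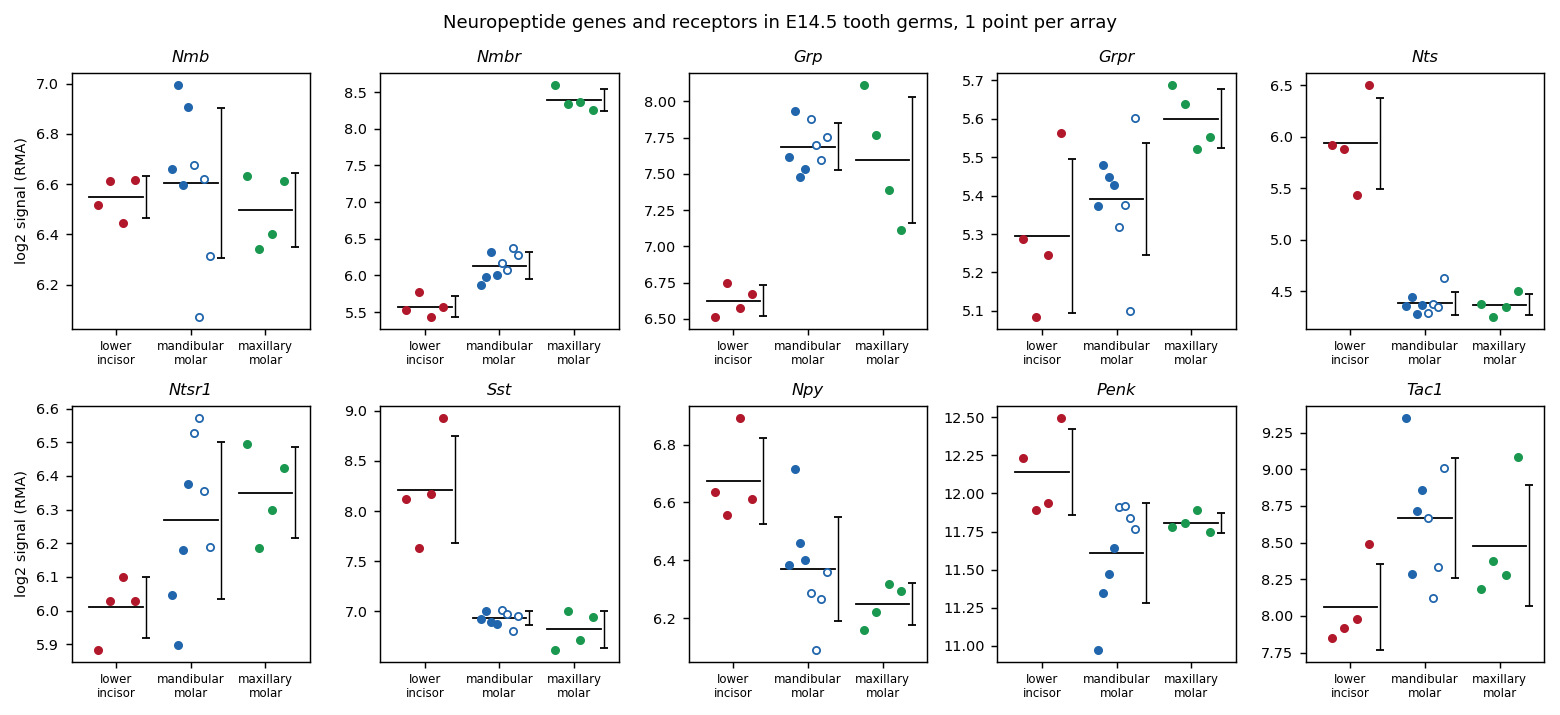
Log2 signal (y axis, a separate range in each panel) of each of the 10 genes in the 16 arrays, by tooth type (x axis); red points are lower incisors, filled blue points mandibular molars 1 to 4, open blue points mandibular molars 5 to 8 and green points maxillary molars, horizontal lines are group means and the bars beside them the SD (n = 4, 8 and 4). *Nmbr* separated the 3 tooth types, *Grp* was lower and *Nts* and *Sst* were higher in the 4 incisor samples than in all 12 molar samples, and *Nmb* overlapped throughout.

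*Nts* and *Sst* had the opposite pattern, with the higher signal in incisors. *Nts* encodes neurotensin, a peptide of gut and brain. It measured 5.92, 5.88, 5.43 and 6.51 in incisors, 4.27 to 4.63 (median 4.36) in mandibular molars and 4.38, 4.25, 4.34 and 4.50 in maxillary molars. Each incisor was above each molar, and none of the 12 molar samples passed the signal of 5 that was required of at least 1 compared sample. The gene therefore left the tests among molars, and it entered those against incisors only through the group in which it was high. The mandibular mean minus the incisor mean was -1.55 (SE 0.15), a 2.93-fold difference. With every signal under 5 raised to 5, the difference came to -0.94. *Ntsr1*, its high-affinity receptor, did not show this pattern: incisors measured 5.88 to 6.10, mandibular molars 5.90 to 6.57 and maxillary molars 6.19 to 6.49. Mandibular molars overlapped with both other types, and the mandibular mean was 0.26 (SE 0.12) above that of the incisors but only 0.12 above it within molars 1 to 4. Every maxillary molar lay above every incisor, with a difference of 0.34 (SE 0.08), but 0.05 with the 2 sets of arrays as a block.

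*Sst* encodes somatostatin, which lowers the secretion of many hormones. The incisors measured 8.12, 7.64, 8.18 and 8.93, the mandibular molars 6.80 to 7.01 (median 6.94) and the maxillary molars 6.62, 7.01, 6.72 and 6.94. Every incisor exceeded every molar, and molars of both jaws overlapped. The mandibular mean minus the incisor mean was -1.28 (SE 0.17), a 2.43-fold difference, and -1.29 within molars 1 to 4. The SD among incisors was 0.54, against 0.07 among mandibular molars. Incisor 4 had the highest signal of the 16 samples for *Sst* and for *Nts*, and without it the differences from mandibular molars were -1.04 and -1.36.

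The cartilage list was also higher in incisors. Incisor 4 was highest for the list and for both genes, incisor 2 was lowest for the list and for *Sst*, and incisor 3 was lowest for *Nts*. Incisors 1, 2 and 3 measured 8.12, 7.64 and 8.18 for *Sst*, and 5.92, 5.88 and 5.43 for *Nts*. The cartilage list was highest in incisor 4 (8.79) and next in incisor 1 (8.68), then in incisor 3 (7.84) and incisor 2 (7.60). By limma, 7 of its 8 genes were lower in mandibular molars than in incisors, led by *Acan* at -2.26 (SE 0.42, adjusted p = 0.00979). Neuron markers did not move one way. *Stmn2*, a protein of growing axons, was lower in mandibular molars (-1.78, SE 0.26, adjusted p = 0.0019), whereas *Nefl*, a neurofilament subunit, was higher (1.42, SE 0.29, adjusted p = 0.0166). Of the 14 neuron genes, 3 passed the test, 1 higher and 2 lower in molars, and of the 5 Schwann cell genes kept 2 passed, both lower in molars. Of the 10 skeletal muscle genes 5 passed, all lower in molars. These counts stand beside 4.93% of all probe sets. With mandibular molars 1 to 4 only, *Stmn2*, *Nefl* and the cartilage genes *Col9a1* and *Matn4* were still called. *Acan* (limma adjusted p = 0.171) and the other genes that had passed on these lists were not, although the difference of *Acan* was still -2.26. With all samples and the 2 sets of arrays as a block, *Acan* (limma adjusted p = 0.0108), *Hapln1*, *Myod1* and *Chrna1* were called as well. The part of these tissues in the *Nts* and *Sst* values was not tested.

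The sequences just upstream of *Sst* and *Nts*, the genes that were high in incisors, are shown beside that of *Nmbr*, which was lowest there, because the 3 had the widest spans between tooth types as measured. For *Nts* that rank rests on molar signals under 5: with the floor at 5 its difference of -0.94 was smaller than the 1.06 of *Grp*. RefSeq's table for GRCm38.p6 held a promoter for 8 of the 10 members, and the 250 bases before the transcript start are printed 5′ to 3′ on the strand of the gene. Capitals mark matches to 3 motifs searched on both strands, none overlapping another: the cAMP response element TGACGTCA, the TATA box TATAAA and the homeodomain core TAATTA.
*Sst*, chr16:23890845-23891094, minus strand: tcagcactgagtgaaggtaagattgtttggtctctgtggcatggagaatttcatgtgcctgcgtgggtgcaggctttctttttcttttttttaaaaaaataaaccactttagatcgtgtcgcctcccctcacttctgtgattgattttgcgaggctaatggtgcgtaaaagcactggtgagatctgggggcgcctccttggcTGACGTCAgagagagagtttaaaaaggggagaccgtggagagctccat
*Nts*, chr10:102490419-102490668, minus strand: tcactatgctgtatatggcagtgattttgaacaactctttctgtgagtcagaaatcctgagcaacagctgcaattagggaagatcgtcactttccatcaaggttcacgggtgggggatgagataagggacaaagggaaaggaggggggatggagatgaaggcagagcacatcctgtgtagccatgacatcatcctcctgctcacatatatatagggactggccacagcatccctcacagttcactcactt
*Nmbr*, chr10:14759697-14759946, plus strand: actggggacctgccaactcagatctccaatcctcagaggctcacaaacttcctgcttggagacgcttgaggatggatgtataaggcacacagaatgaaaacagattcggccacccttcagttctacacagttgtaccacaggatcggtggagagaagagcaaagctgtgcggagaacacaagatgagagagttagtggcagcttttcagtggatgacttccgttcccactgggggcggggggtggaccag
The *Sst* window held 1 cAMP response element, beginning at -48 from the start, a palindrome that reads the same on both strands and that 1.55% of the 32851 promoters in the table contained. Neither the *Nts* nor the *Nmbr* window held an exact match to any of the 3 motifs. Among the other members with a promoter, only *Tac1* had a match, a homeodomain core at -100, which 4.84% of all promoters shared. The letters TATAAA, found in 12.4% of all promoters, were in none of the 8 windows. Only exact letters were searched, so variants, such as the tatatata in the *Nts* window, were not counted. These matches describe letters in a window and not sites in use.

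Of the 5 somatostatin receptor genes, which were not among the 10, *Sstr1* and *Sstr4* were higher in molars, where *Sst* was lower. These genes too were chosen with earlier results of these data known, so the p-values given for them are descriptive. *Sstr1* measured 6.10, 6.14, 6.05 and 6.01 in incisors, 6.84 to 7.61 (median 7.06) in mandibular molars and 7.00, 7.41, 7.10 and 7.30 in maxillary molars. *Sstr4* measured 8.07, 8.49, 8.02 and 8.51 in incisors, 8.93 to 9.33 (median 9.16) in mandibular molars and 9.36, 9.43, 9.46 and 9.38 in maxillary molars. For both genes every molar of either jaw was above every incisor, the reverse of *Sst*. In mandibular molars *Sstr1* was higher than in incisors by 1.03 (SE 0.12, limma adjusted p = 0.000311) and *Sstr4* by 0.89 (SE 0.11, adjusted p = 0.000477). Both remained called in each of the 25 alternative settings of this comparison, with an adjusted p of at most 0.0489 and 0.0375. *Sstr2* was 0.29 higher (SE 0.14), which did not pass (adjusted p = 0.281), and *Sstr3* (-0.14, adjusted p = 0.461) and *Sstr5* (-0.07, adjusted p = 0.522) did not pass either. *Cort*, whose product cortistatin binds the same receptors, differed by 0.00 (SE 0.08, adjusted p = 0.992). Between mandibular and maxillary molars *Sstr1* overlapped and did not pass (-0.10, SE 0.13, adjusted p = 0.693). *Sstr4* did not pass either (-0.25, SE 0.07, adjusted p = 0.142), although every maxillary molar lay above every mandibular molar.

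**Figure D3:**
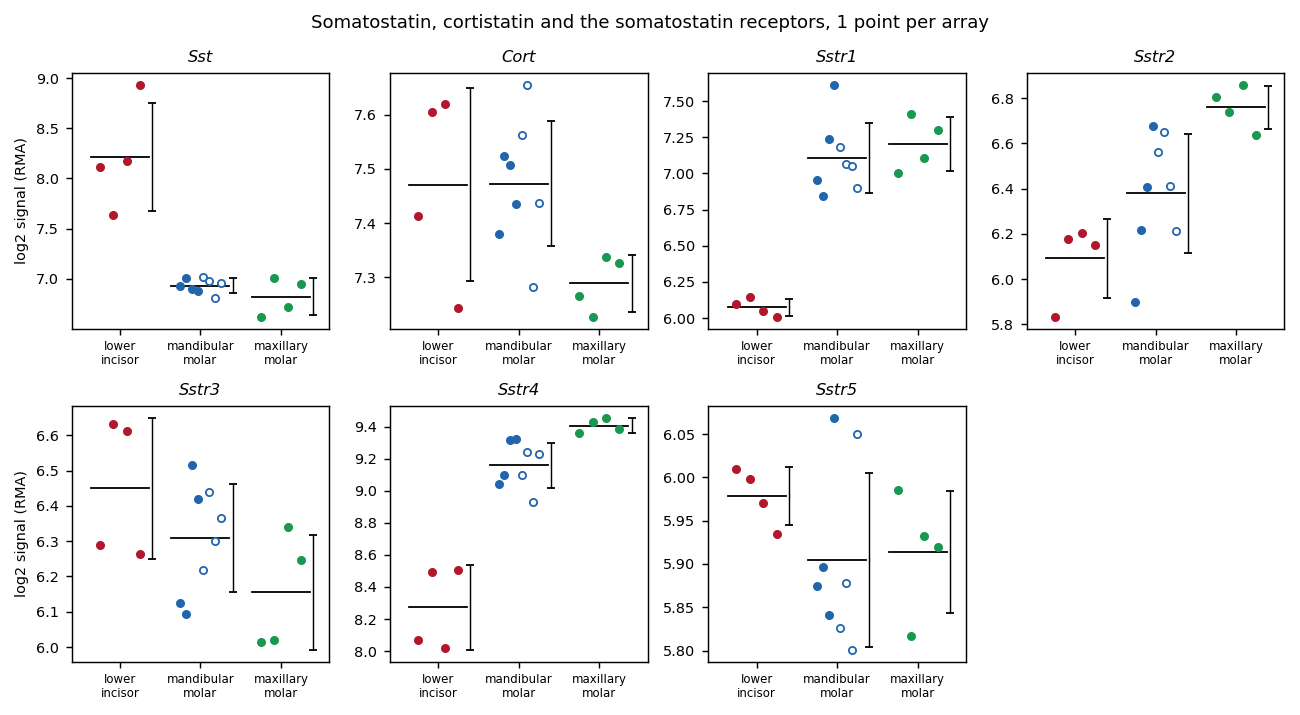
Log2 signal (y axis, a separate range in each panel) of *Sst*, *Cort* and the 5 somatostatin receptor genes in the 16 arrays, by tooth type (x axis); colours, lines and SD bars are as for the 10 genes (red incisors, blue mandibular molars with 1 to 4 filled and 5 to 8 open, green maxillary molars). The 4 incisor samples were highest for *Sst* (7.64 to 8.93) and lowest for *Sstr1* (6.01 to 6.14) and *Sstr4* (8.02 to 8.51).

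The 3 remaining precursors differed less between tooth types and their groups mostly overlapped. *Npy*, a peptide of sympathetic nerves, measured 6.64, 6.56, 6.89 and 6.61 in incisors, 6.09 to 6.72 (median 6.37) in mandibular molars and 6.16, 6.22, 6.32 and 6.30 in maxillary molars. Incisors lay above all maxillary molars, but mandibular molar 2 was within the range of the incisors. The mandibular mean minus the incisor mean was -0.30 (SE 0.10), and -0.18 within molars 1 to 4.

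*Penk*, the precursor of the enkephalins, had signals from 10.97 to 12.50. It measured 12.23, 11.89, 11.93 and 12.50 in incisors, 10.97 to 11.92 (median 11.70) in mandibular molars and 11.78, 11.80, 11.89 and 11.74 in maxillary molars. The lowest incisor and the highest maxillary molar were equal to 2 decimals (11.89), and incisors overlapped with mandibular molars. The mandibular mean minus the incisor mean was -0.53 (SE 0.18), and -0.78 within molars 1 to 4. The comparison with maxillary molars depended on the set of arrays: it was -0.20 (SE 0.16) over all mandibular molars and 0.05 within molars 5 to 8.

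*Tac1*, which gives substance P and neurokinin A, was the only precursor besides *Grp* with a higher mean in molars of both jaws. It measured 7.85, 7.92, 7.98 and 8.49 in incisors, 8.12 to 9.35 (median 8.69) in mandibular molars and 8.18, 8.37, 8.28 and 9.08 in maxillary molars. Only incisor 4 reached into the range of the molars. The mandibular mean was 0.61 above that of the incisors (SE 0.21), and 0.75 above it without incisor 4.

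**Figure D4:**
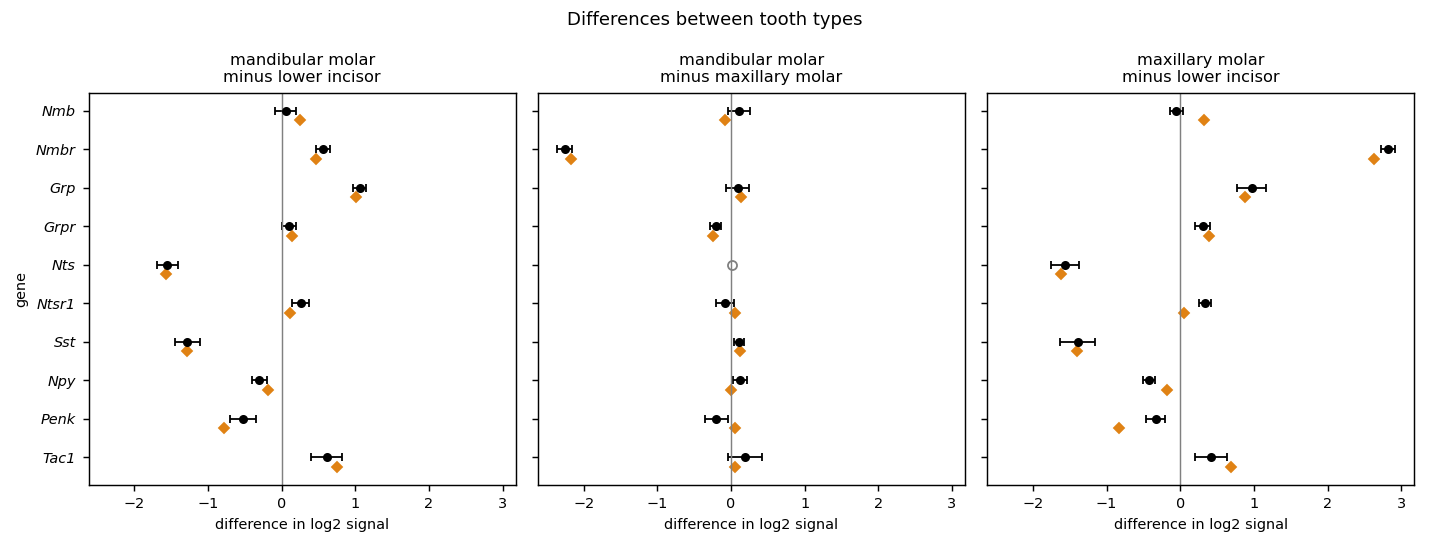
Difference in log2 signal between tooth types (x axis, the same in the 3 panels) for each of the 10 genes (y axis); black points are the fit without a block with their SE, orange diamonds the fit with the 2 sets of arrays as a block, and the open grey point is *Nts*, which did not pass the signal filter among molars. *Nmbr* had the largest differences, -2.26 and 2.82, in the 2 comparisons with maxillary molars, and *Nts* and *Sst* lay at -1.28 or lower in both comparisons with incisors.

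Counted by the criteria used for all probe sets (limma adjusted p below 0.1 and a fold change above 1.2), 4 of the 10 genes passed between mandibular molars and incisors, *Nmbr* and *Grp* higher in molars and *Nts* and *Sst* lower. Of all 29258 probe sets kept there, 2.75% were higher and 2.18% lower in molars, and 3.69% had groups that did not overlap, as 4 of the 10 genes did. Between mandibular and maxillary molars 1 of 9 kept genes passed, *Nmbr*, lower in mandibular molars and not overlapping. There 1.01% of 29068 probe sets were higher in mandibular molars, 1.18% lower, and 4.10% did not overlap. Between maxillary molars and incisors 8 of 10 passed, all but *Nmb* and *Tac1*, 4 in each direction, and 7 did not overlap. The background there was 14.4% higher, 13.4% lower and 32.3% not overlapping. The first count was 7 without mandibular molar 2. With the set of arrays as a block, 5 of the last 8 remained called: *Nmbr*, *Grp*, *Nts*, *Sst* and *Penk*. Nothing is read from these counts, because the genes were chosen on them. The 3 comparisons share samples, each tooth type being used in 2 of them.

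A comparison within 1 tooth type, mandibular molars 1 to 4 minus 5 to 8, played no part in choosing the genes. The split itself was drawn from these values and the sample numbers, so its p-values and counts describe the split and are no independent test of it. Of the 9 genes kept, 1 passed by limma, beside 11.8% of all 28936 probe sets. *Penk* was lower in molars 1 to 4, at 10.97, 11.35, 11.47 and 11.64, than in molars 5 to 8, at 11.91, 11.92, 11.84 and 11.76, with no overlap. The difference was -0.50 (SE 0.13, adjusted p = 0.0527). It did not pass with the methods' t-test (adjusted p = 0.105) or without mandibular molar 2 (0.102), 5 (0.129), 6 (0.13) or 7 (0.109). *Npy* also did not overlap, with 6.38 to 6.72 in molars 1 to 4 and 6.09 to 6.36 in molars 5 to 8. Its difference of 0.24 (SE 0.09) did not pass (adjusted p = 0.141). Of all 28936 probe sets, 5671 did not overlap in this split, so nothing is read from the lack of overlap of these 2 genes. *Nmb* was 0.37 higher in molars 1 to 4 (SE 0.15, adjusted p = 0.16) and *Ntsr1* lower (-0.29, SE 0.12, adjusted p = 0.175), and neither passed. *Nmbr* (-0.19, adjusted p = 0.308), *Grp* (-0.09, adjusted p = 0.636), *Sst* (-0.01, adjusted p = 0.919), *Grpr* (0.08, adjusted p = 0.639) and *Tac1* (0.27, adjusted p = 0.529) did not pass either. *Nts*, below the signal filter in all 8 samples, was not tested.

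The wider neuropeptide system was read from 6 lists of genes grouped by function, 151 genes in all, of which 145 had a probe set. The lists were written with earlier results of these data known, so their counts and p-values are descriptions and no independent test. Between mandibular molars and incisors 14 of 133 kept genes passed (10.5%), 6 higher in molars and 8 lower, beside 4.93% of all probe sets. Between mandibular and maxillary molars 8 of 131 passed (6.11%), 2 higher and 6 lower, beside 2.18%. Between maxillary molars and incisors 55 of 132 passed (41.7%), 17 higher and 38 lower, beside 27.8%, and 11 passed with the set of arrays as a block. Within the mandibular molars, numbers 1 to 4 minus 5 to 8, 8 of 130 passed (6.15%), 3 higher and 5 lower, beside 11.8%. The lists hold named genes only, and with all probe sets reduced to 1 per named gene the shares were 12.8% of list genes beside 9.79% of 17309 genes between mandibular molars and incisors, 6.87% beside 4.59% between the jaws, 43.2% beside 29.8% between maxillary molars and incisors, and 6.92% beside 13.8% within mandibular molars. In the fit of all probe sets, with only mandibular molars 1 to 4 against incisors the count was 6 in place of 14, and with only molars 5 to 8 against maxillary molars it was 5 in place of 8. Single samples moved these counts too: that against incisors was 9 without incisor 1, that between the jaws 3 without maxillary molar 1 or 2 and 5 without maxillary molar 3 or 4 or mandibular molar 4, and that of maxillary molars against incisors 35 without incisor 3.

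Of the 41 kept receptors of other neuropeptides, 7 passed between mandibular molars and incisors (17.1%, beside 4.93% of all probe sets), 1 higher and 6 lower in molars, with a median difference of -0.09 over the list against -0.02 over all probe sets. Fitted at 1 probe set per named gene, 9.79% of genes passed in this comparison, a share that also belongs beside this list and the single lists below. *Rxfp1*, the relaxin receptor, measured 5.75, 5.92, 6.19 and 5.86 in incisors and 4.66 to 5.01 in mandibular molars, and was lower in molars (-1.18, SE 0.08, adjusted p = 4.96e-06). *Qrfpr*, the receptor of the RFamide peptide QRFP, was lower (-0.92, SE 0.15, adjusted p = 0.00371), *Rxfp3*, the relaxin-3 receptor, too (-0.67, SE 0.09, adjusted p = 0.00138) and *Adcyap1r1*, a receptor of PACAP, likewise (-0.45, SE 0.07, adjusted p = 0.00247). None of the 4 overlapped between these tooth types, and each was called in all 25 alternative settings. *Calcrl*, the receptor subunit shared by CGRP and adrenomedullin, was the 1 receptor of the list that was higher in molars (0.31, SE 0.06, adjusted p = 0.0166), but it was not called in 3 of 25 settings, which include molars 1 to 4 only (0.24, adjusted p = 0.239) and the set block (0.24, under the fold required).

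Of 34 kept precursors of other peptides 1 passed between mandibular molars and incisors (2.94%, beside 4.93% of all probe sets), *Gnrh1*, the gonadotropin-releasing hormone gene, lower in molars (-0.55, SE 0.13, adjusted p = 0.0385). Of the 10 close relatives of the described peptides 1 passed (10%), *Tac2*, which encodes neurokinin B and is a relative of *Tac1*. Its signal was 5.15 to 5.71 in incisors and 4.78 to 5.15 in mandibular molars, a difference of -0.48 (SE 0.11, adjusted p = 0.0269), opposite in sign to that of *Tac1*. With mandibular molars 1 to 4 only, neither passed, although both differences were larger (*Gnrh1* -0.65, adjusted p = 0.134, and *Tac2* -0.53, adjusted p = 0.132). *Gnrh1* was not called in 4 of 25 settings, which include leaving out incisor 1 or 2, and *Tac2* in 5, which include a filter above 6, quantile normalization and the set block (adjusted p = 0.105). Of the 17 kept receptors cognate to the described peptides, 2 passed (11.8%), the *Sstr1* and *Sstr4* genes given above.

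Of 19 kept genes for peptide processing and secretory granules 1 passed between mandibular molars and incisors (5.26%, beside the same 4.93%), *Cpd*, a carboxypeptidase of the secretory pathway (0.36, SE 0.10, adjusted p = 0.085), and it passed in 11 of 25 alternative settings, in none of those that left out an incisor. Of 12 peptidases 2 passed (16.7%), both higher in molars. *Enpep*, glutamyl aminopeptidase, measured 7.34, 7.87, 6.42 and 7.69 in incisors and 8.15 to 9.10 in mandibular molars, a difference of 1.37 (SE 0.24, adjusted p = 0.00661) that was lost only with molars 1 to 4 alone (1.27, adjusted p = 0.132). *Nln*, neurolysin, which cleaves neurotensin, was higher by 0.31 (SE 0.08, adjusted p = 0.0657), and passed in 15 of 25 settings, but not without incisor 1 or 3 or mandibular molar 5, 6, 7 or 8.

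Between the jaws, the clearest list genes were higher in maxillary molars, as *Nmbr* was. *Hcrtr2*, an orexin receptor, measured 4.98 to 5.16 in mandibular molars and 5.70, 5.94, 6.06 and 5.36 in maxillary molars, a difference of -0.70 (SE 0.10, adjusted p = 0.00524). *Scg2*, which encodes the granule protein secretogranin II, measured 5.97 to 6.32 and 6.56, 6.79, 6.55 and 6.73, a difference of -0.51 (SE 0.07, adjusted p = 0.00293). Both were called in all 25 alternative settings. *Gal*, galanin (-0.40, SE 0.08, adjusted p = 0.0282), *Mc4r*, a melanocortin receptor (-0.39, SE 0.07, adjusted p = 0.0159) and *Calcb*, a CGRP gene (-0.34, SE 0.09, adjusted p = 0.0877) were also lower in mandibular molars. So was the peptidase gene *Mme*, neprilysin (-0.35, SE 0.09, adjusted p = 0.0863). *Mchr1* (0.37, SE 0.09, adjusted p = 0.0745) and *Adcyap1r1* (0.31, SE 0.07, adjusted p = 0.0462), receptors of melanin-concentrating hormone and PACAP, were higher in mandibular molars. Without maxillary molar 1 or 2 the calls of *Gal*, *Calcb*, *Mme*, *Mchr1* and *Adcyap1r1* were lost, and with the set block those of *Calcb*, *Mc4r*, *Mme*, *Mchr1* and *Adcyap1r1*. The skeletal muscle list moved the other way from *Nmbr*, with list means of 7.79 to 9.13 in mandibular and 6.85 to 7.41 in maxillary molars. By limma, 8 of its 10 genes were higher in mandibular molars (80%, beside 2.18% of all probe sets), led by *Myh3* at 2.14 (SE 0.29, adjusted p = 0.00255). Neuron markers also differed: *Nefl* (2.22, SE 0.25, adjusted p = 0.000802) and *Nefm* (0.97, SE 0.25, adjusted p = 0.0873), both neurofilament genes, were higher in mandibular molars and *Gap43*, a growth cone protein gene, lower (-0.45, SE 0.12, adjusted p = 0.0977). These were 3 of 14 genes (21.4%), with list means of 6.59 to 6.92 and 6.51 to 6.62. Of 25 alternative settings, *Nefm* was called in 15 and *Gap43* in 11. The part of muscle and nerve in the differences between the jaws was not tested.

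**Figure D5:**
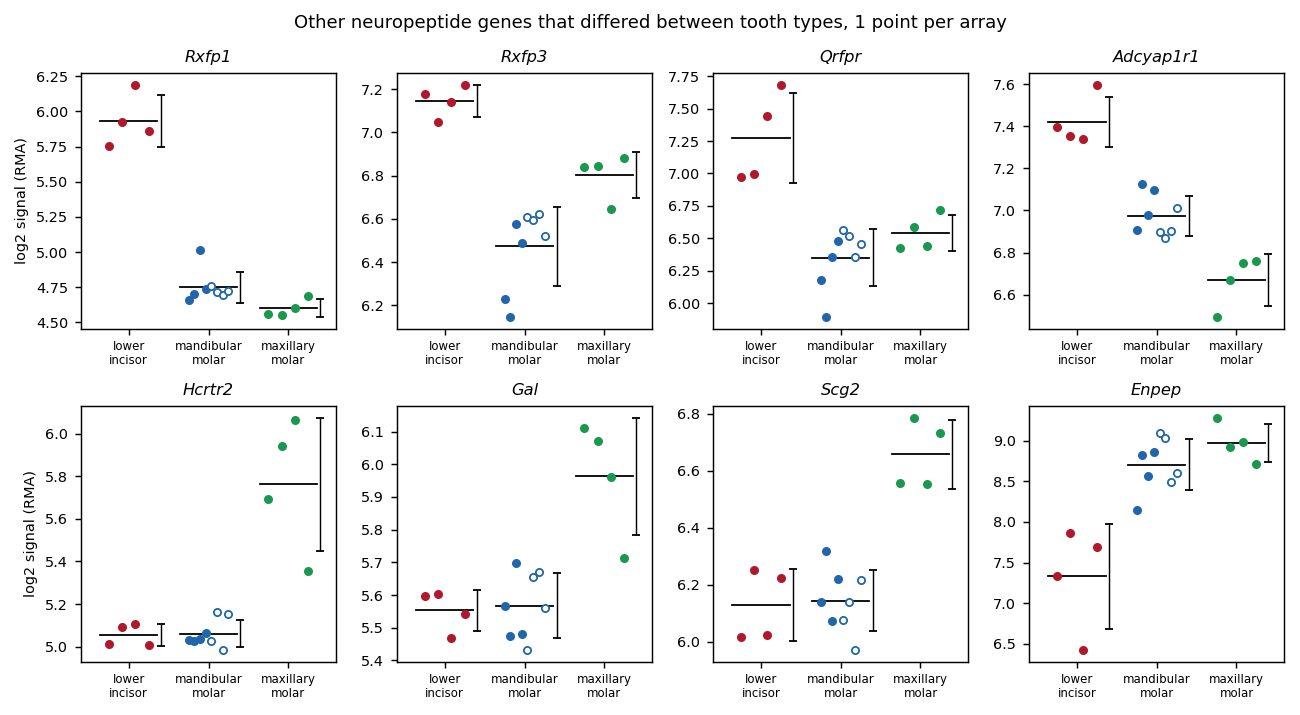
Log2 signal (y axis, a separate range in each panel) of 8 genes from the neuropeptide lists in the 16 arrays, by tooth type (x axis); colours, lines and SD bars are as for the 10 genes (red incisors, blue mandibular molars with 1 to 4 filled and 5 to 8 open, green maxillary molars). *Rxfp1*, *Rxfp3*, *Qrfpr* and *Adcyap1r1* were highest in incisors, *Hcrtr2*, *Gal* and *Scg2* in maxillary molars, and *Enpep* was lowest in incisors.

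In the direct comparison of maxillary molars with incisors, tooth type and set of arrays coincide. Genes that passed again included *Sstr1*, *Sstr4*, *Rxfp1* and *Enpep*. *Qrfpr*, *Rxfp3* and *Adcyap1r1* did too, again lower than in incisors, and were called with the set block (limma adjusted p = 0.0265, 0.023 and 0.00405). *Gnrh1*, *Tac2*, *Calcrl*, *Cpd* and *Nln* also passed, but not with the set block. *Sstr4* was higher in maxillary molars by 1.13 (SE 0.12, adjusted p = 0.000623) and *Sstr1* by 1.13 (SE 0.09, adjusted p = 0.000195), and both were called with the set block (1.21 and 1.24). *Sstr2* was higher by 0.67 (SE 0.09, adjusted p = 0.00218) but was not called with the block (0.51, adjusted p = 0.301). *Rxfp1* was lower (-1.33, SE 0.09, adjusted p = 0.000102) and *Enpep* higher (1.64, SE 0.29, adjusted p = 0.00535). *Avpr1a*, a vasopressin receptor, was lower (-0.86, SE 0.25, adjusted p = 0.0365), but not with the block (adjusted p = 0.438).

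For the 4 members whose tooth type means spanned more than 1, the genes of most similar profile were sought among 17327 others by Pearson's r over the 16 samples. The samples share tooth type, so a high r mostly repeats the order of the types, and it is given as a description. *Icos*, a T cell costimulatory receptor gene (r 0.98), *Pla2g7*, a lipoprotein-associated phospholipase gene (0.97), and the protein phosphatase gene *Ppef1* (0.97) were nearest to *Nmbr*. *Pla2g7* had means of 6.83 in incisors, 7.51 in mandibular molars and 9.41 in maxillary molars, the order of *Nmbr*. Nearest to *Grp* were *Mexis*, the sodium leak channel gene *Nalcn* and *Fgf12*, each at 0.91, and all had their lowest mean in incisors. *Nts* was nearest to *Sfrp4*, a secreted Wnt antagonist (0.97), *Prdm16* (0.96) and *Ccdc81* (0.96). *Sfrp4* had a mean of 11.51 in incisors against 7.39 and 7.47 in mandibular and maxillary molars. *Sst* was nearest to *Mcpt4* (0.97), *Hand1* (0.97) and *Mcpt2* (0.96), of which *Mcpt4* and *Mcpt2* encode mast cell proteases and *Hand1* a transcription factor of the distal jaw. *Mcpt2* had means of 6.83, 4.55 and 4.13 in incisors, mandibular molars and maxillary molars.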

How the data were processed

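RNA from 16 pools of 4 tooth germs was hybridised to 1 array each. The deposited values are log2 signals that the authors made with RMA in Affymetrix Expression Console 1.1, per the labels. The table holds 35556 probe sets, of which 21789 have 1 gene symbol, 1621 several and 12146 none, and only the first kind was named. Groups were taken from the titles. The study's methods discarded 1 incisor sample that the labels do not name, so all 4 were used.

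Each comparison was fitted with limma 3.58.1 (R 4.3.3) on its own samples, over probe sets with a log2 signal above 5 in at least 1 compared sample. A probe set was called at a Benjamini-Hochberg adjusted p below 0.1 over all probe sets kept and a fold change above 1.2. The scripts were tested on simulated data. The 10 genes, the lists and the markers were chosen with earlier results of these data known. Named genes were all 10 members, up to 4 called genes per list and comparison with the largest differences, the 3 genes nearest in profile to members spanning more than 1, and of each marker list the 2 with the highest mean and the called gene with the largest difference. A few further genes, such as the other somatostatin receptors and *Cort*, were named after their values were seen. Alternatives covered the filter, normalization, a floor, the test, variance, probe sets, pairing, sample sets and each replicate left out. Counts of the members and their values within mandibular molars were added to the alternatives after seeing the data. The table gives neither read depth nor detection calls, and the number of arrays limits the precision. Promoters came from RefSeq (GRCm38.p6).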

Additional observations from a re-analysis of the deposited data

Results flagged for a closer look

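In mandibular molar 8 the *Nts* log2 signal was 4.63, far from the other 7 mandibular molars for their spread, the nearest being 4.44 and the lowest 4.27. All of these are below the signal of 5 used as a filter. It was the 1 such sample among the 30 groups of members and tooth types examined, and chance alone gives about 1 in 20 groups.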

How the results depend on the processing

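No called difference of a member turned its sign. *Nmbr*, *Grp*, *Nts* and *Sst* were called between mandibular molars and incisors and *Nmbr* between the jaws, under every alternative run, except *Nmbr* against incisors with the replicate block and with mandibular molars 1 to 4 only. Members called there went from 4 to 8 with array weights, 7 with 1 probe set per gene and 7 without mandibular molar 2, and from 8 to 5 between maxillary molars and incisors with the set block. That block moved the maxillary molar minus incisor differences to 2.63 for *Nmbr*, 0.32 for *Nmb*, 0.05 for *Ntsr1*, -0.19 for *Npy* and -0.84 for *Penk*, and the floor at 5 moved that of *Nts* to -0.94. Every member had 1 probe set, so averaging probe sets gave no other value.

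Between mandibular molars and incisors, 1441 probe sets and 14 list genes were called. Array weights gave 4924 probe sets, and molars 1 to 4 only gave 518 and 6 list genes. Leaving out 1 sample gave 900 to 2304 and 9 to 16, the extremes being without incisor 3 and mandibular molar 2, and without incisors 1 and 4. Between mandibular and maxillary molars, 635 and 8 were called, against 279 and 4 with the set block, 368 and 5 with molars 5 to 8 only, and 5 list genes with the methods' t-test. Leaving out 1 sample gave 266 to 841 and 3 to 8, the lowest being without maxillary molar 2, and for list genes also without 1. Between maxillary molars and incisors, 8090 and 55 were called, against 891 and 11 with the set block, 5140 with 1 probe set per gene and 32 list genes with quantile normalization. Leaving out 1 sample gave 6757 to 10344 and 35 to 58, the extremes being without incisors 3 and 4. Between mandibular molars 1 to 4 and 5 to 8, 3408 were called, and 1993 (without molar 6) to 5316 (without molar 4) with 1 sample left out. The causes of these shifts were not tested.

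The labels do not say whether samples with the same number share anything besides that number. Correlations of their deviations were 0.09 to 0.67 for mandibular molars with incisors, 0.01 to 0.39 with maxillary molars, and -0.07 to 0.24 for maxillary molars with incisors, and not every sample correlated best with its own number. The replicate block, which uses mandibular molars 1 to 4, gave 539 probe sets and 7 list genes against incisors and 5832 and 27 against maxillary molars. A signal near the filter at 5 cannot be told from background, which limits *Nts*, *Grpr*, *Rxfp1*, *Tac2*, *Hcrtr2* and, in incisors, *Nmbr*.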
